A study of Capra hircus with 6 samples.

Results

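The genes described here encode the nuclear-encoded subunits of the mitochondrial respiratory chain and the ATP synthase, in RNA from the medio-basal hypothalamus of the goat. They were taken by symbol, as NDUFA, NDUFB, NDUFC, NDUFS or NDUFV followed by a number, SDHA to SDHD, and symbols starting with UQCR, CYC1, COX4 to COX8 or ATP5. Assembly factors were left out only by symbol, where it contains AF. The rule found 59 of the 28907 rows of the count table. They comprised 36 subunits of complex I, 4 of complex II, 15 of the ATP synthase, the NDUFA4 pair (NDUFA4 and NDUFA4L2), and 2 genes whose ATP5 symbol does not name a subunit, ATP5S and ATP5SL. The rule found 0 rows of complex III (UQCR and CYC1 symbols) or of the COX subunits of complex IV, and those genes were not analysed here. Of the 13 subunits encoded by mitochondrial DNA, 0 were matched, and they were not analysed here either.

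The animals were adult Alpine goats staged by ovarian cycle, 5 sampled in January in the follicular phase and 8 in mid-May in anestrus, out of 18 in the study. The other goats, sampled in January in the luteal phase, were not analysed here. No drug, genetic change or surgery is named in the labels, so season and ovarian state differ together between the groups. RNA from the goats of a condition was mixed at random into 2 pools per condition, each sequenced as 1 library, named follicular pools 1 and 2 and anestrus pools 1 and 2 after the deposited library names. A p-value here therefore rests on the spread between pools of a group and not between single goats. For a single gene it draws in part on the spread of the other genes, since 2 pools measure its own poorly. Which goats entered a pool is not given in the sources used here.

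The respiratory chain sits in the inner mitochondrial membrane. Complex I takes electrons from NADH and complex II takes them from succinate, both pass them through quinone to complexes III and IV, and the proton gradient built on the way drives the ATP synthase. Neurons depend on this pathway for most of the ATP that restores ion gradients after firing, while astrocytes rely more on glycolysis.

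Levels are given as CPM, counts relative to the library total, after scaling by the trimmed mean of M-values (TMM), and group values as mean ± SD over 2 pools. Log2 fold changes are follicular minus anestrus with their standard error (SE), from edgeR's quasi-likelihood test on the 16756 genes with enough counts, and a gene is called when its Benjamini-Hochberg adjusted p over all of them is under 0.05. The 59 genes all passed the filter on low counts. Library totals ran from 14553821 counts in anestrus pool 1 to 25292678 in follicular pool 1. The TMM factor of anestrus pool 1 was 0.9809, beside 1.0053 to 1.0077 for the other libraries. The summed counts of the 59 genes are compared between libraries only as CPM. Levels were in general not compared between genes, since transcript lengths were not used here. Exceptions are the subunit c shares, the ratio of ATP synthase to complex I, and the choice of named genes by mean CPM. Many of these genes have processed pseudogenes, and how reads that map to several places were counted is not given in the sources used here, so their counts are uncertain to that extent. In bulk RNA, fewer cells of a type and less RNA per cell cannot be told apart.

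The levels of these genes did not pass the test between the follicular phase and anestrus for any of the 59, and in their summed level the spread between the anestrus pools was larger than the difference between the seasons. Summed over the 59 genes, the level was 8114 CPM in follicular pool 1, 8113 CPM in follicular pool 2, 9594 CPM in anestrus pool 1 and 7444 CPM in anestrus pool 2. The follicular pools thus lay between the anestrus pools and close to each other. The group values were 8114 ± 0.577 CPM (follicular) and 8519 ± 1520 CPM (anestrus; SD, n = 2 pools each), a log2 ratio of -0.07, with p = 1.0 in a two-sided exact permutation test over the 4 libraries, in which 2 pools against 2 cannot give a p under 1 in 3. This log2 ratio was 0.12 if anestrus pool 1 was left out and -0.24 if anestrus pool 2 was, so its direction rests on those pools.

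By edgeR's quasi-likelihood test, 0 of the 59 genes were called, beside 34 of 16756 genes tested, or 0.203% of them. The smallest adjusted p among the 59 was 0.73. At an unadjusted p under 0.05 there were also 0 of 59, where 8.55% of all genes tested lay under it. DESeq2 and limma-voom each called 0 of the 59. Over the whole table, DESeq2 called 0.925% of the 15456 genes to which it gave an adjusted p, and limma-voom 0.179% of the 16756 tested. The median log2 fold change of the 59 was -0.06, beside 0.00 over all genes tested, with a range from -0.41 to 0.63. A negative fold change was fitted for 34 of them and a positive one for 25. For 9 of the 59 (15.3%) the 2 pools of one season lay wholly above those of the other, where 38.3% of all genes tested did, 20.7% with anestrus above and 17.6% with the follicular phase above. Among these, NDUFS4, NDUFS5, SDHC, ATP5A1 and ATP5O were lower in both follicular pools, and ATP5G1, ATP5SL and NDUFA4L2 were higher in both.

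**Figure D1:**
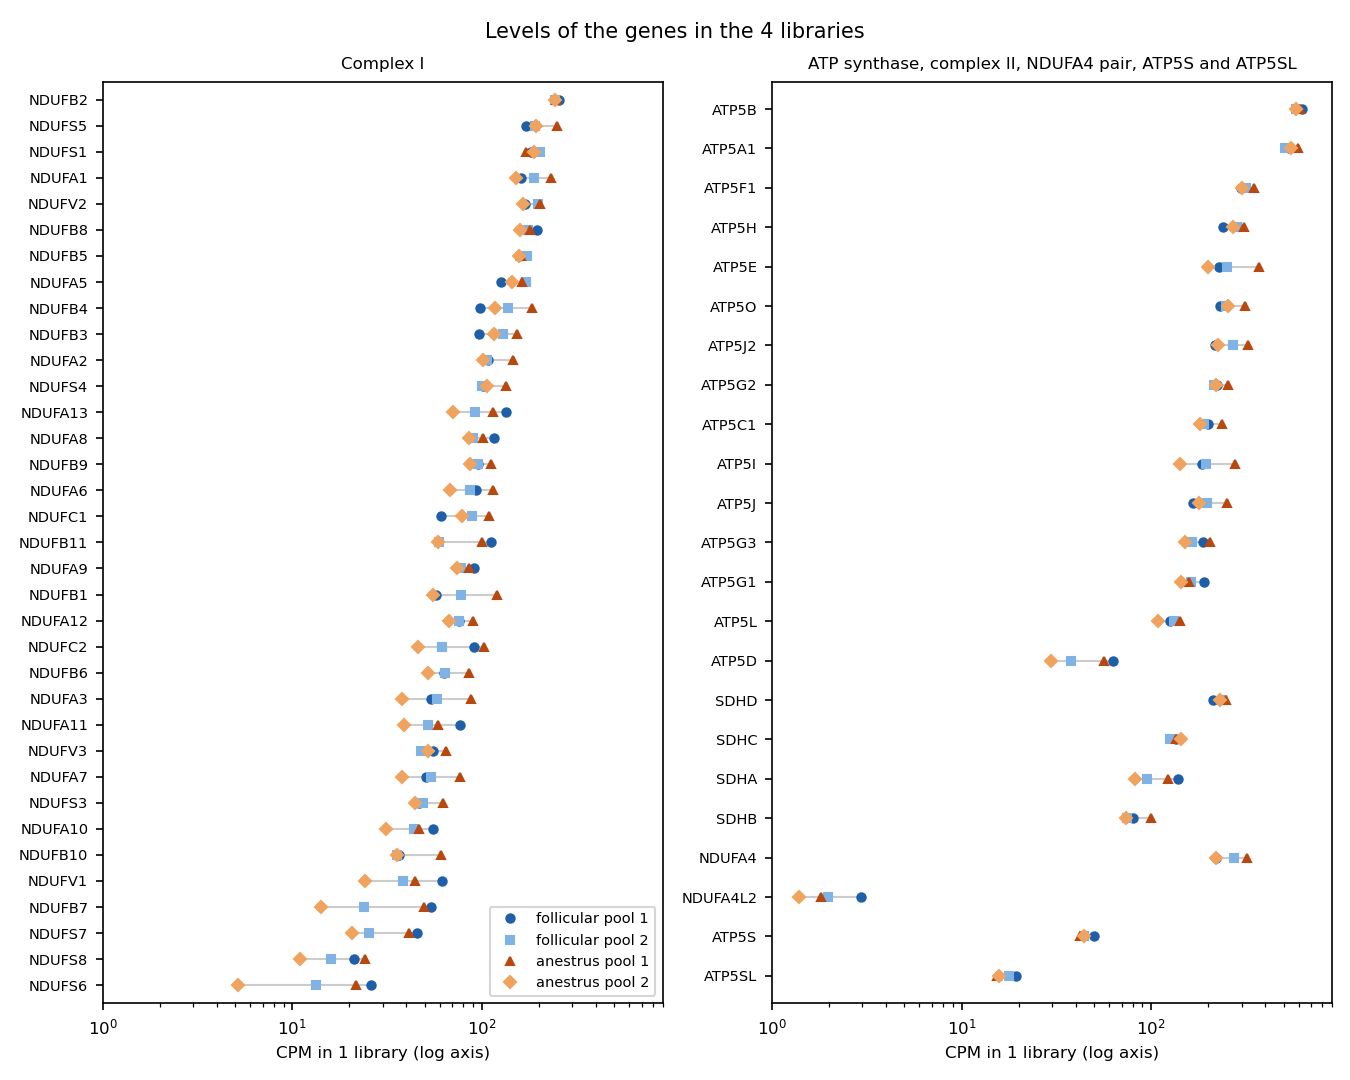
CPM of the genes named at the rows in each library on a log axis, with follicular pools in blue and anestrus pools in orange; the grey line joins the lowest and highest library. Anestrus pool 1 is the highest library for 36 of the 59 genes measured and anestrus pool 2 the lowest for 36, as for NDUFS6 at 5.16 CPM, while ATP5B and NDUFB2 lie close together in the 4 libraries.

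Complex I has core subunits, conserved from bacteria, some of which carry the flavin and the iron-sulphur clusters, and accessory subunits around them. Of the core subunits, 7 are encoded in the nucleus, and their fold changes had a median of 0.08. NDUFV1, which binds flavin mononucleotide and accepts the electrons of NADH, had the second highest fold change of the complex. It stood at 61.3 and 38.4 CPM in the follicular pools, 1 then 2, and at 44.6 and 24.3 CPM in the anestrus pools, an order kept for each gene here. Within each season pool 1 was the higher, and follicular pool 2 lay below anestrus pool 1. The log2 fold change of NDUFV1 was 0.54 ± 0.33 (SE), with an adjusted p of 0.739 in edgeR. Without anestrus pool 1 it was 1.04 and called, a fit in which the spread within anestrus is no longer measured. Without follicular pool 1 it fell to 0.18, and without anestrus pool 2 to 0.21, uncalled in both.

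NDUFS1, the large iron-sulphur subunit next to the flavin site, went the other way within the seasons. It was at 181 and 202 CPM in the follicular pools and at 170 and 189 CPM in the anestrus pools, so pool 2, by library name, was the higher in both. It was the only one of the 59 genes with that order, and its log2 fold change was 0.09 ± 0.16. NDUFS7, which holds the last iron-sulphur cluster before quinone, was at 45.7 and 25.4 CPM against 41.4 and 20.6 CPM. Its neighbour in the chain NDUFS8 was at 21.2 and 16.0 CPM against 24.3 and 10.9 CPM, and both had a wider gap between pools than between seasons. The core subunits NDUFV2 and NDUFS3 had log2 fold changes of 0.00 ± 0.17 and -0.16 ± 0.21.

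The median log2 fold change was -0.06 over the 29 accessory subunits of complex I, with 17 fitted lower in the follicular phase and 0 called. NDUFB10 and NDUFB1, of the membrane arm, had the lowest fold changes of the complex. NDUFB10 was at 36.8 and 35.7 CPM in the follicular pools and at 60.8 and 35.6 CPM in the anestrus pools. Only anestrus pool 1 stood above the other libraries, and the log2 fold change was -0.41 ± 0.25 (adjusted p = 0.74, edgeR). NDUFB1 was at 57.3 and 77.7 CPM in the follicular pools and at 120 and 55.4 CPM in the anestrus pools, again highest in anestrus pool 1. Its log2 fold change was -0.38 ± 0.35, but 0.28 with anestrus pool 1 left out and -0.79, then called, with anestrus pool 2 left out.

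NDUFS6, a zinc-binding accessory subunit needed late in assembly, had the highest fold change of the complex and 1 of the widest spreads. It was at 26.0 and 13.4 CPM in the follicular pools and at 21.7 and 5.16 CPM in the anestrus pools, from 660, 231, 309 and 93 counts. The seasons overlapped, and the log2 fold change was 0.57 ± 0.71 (adjusted p = 0.914, edgeR). Leaving out anestrus pool 1 gave 1.94, and leaving out anestrus pool 2 gave -0.09. NDUFB7, an accessory subunit on the intermembrane side, behaved alike in its spread, at 53.9 and 23.8 CPM against 49.5 and 14.1 CPM. NDUFA11 and NDUFA13, both membrane subunits, were at 76.5 and 52.1 CPM against 58.7 and 38.9 CPM, and at 135 and 91.8 CPM against 115 and 70.1 CPM.

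Among the other accessory subunits, NDUFB2, a small membrane-arm subunit, was at 256 and 243 CPM in the follicular pools and at 245 and 243 CPM in the anestrus pools. Its log2 fold change was 0.04 ± 0.15, with a 95% interval from -0.30 to 0.37. NDUFS5, an intermembrane-side subunit, was lower in both follicular pools, at 170 and 191 CPM against 250 and 193 CPM. The follicular pool 2 and anestrus pool 2 values nearly met, and NDUFS5 had the smallest p of the 59 genes, at an unadjusted 0.123 and an adjusted p of 0.73 (edgeR). NDUFS4, an accessory subunit whose loss is known to cause Leigh syndrome, was at 101 and 99.8 CPM against 134 and 106 CPM. NDUFC1 and NDUFC2, partners in the membrane arm, differed in their follicular pools. NDUFC1 was at 60.9 and 89.2 CPM there and at 110 and 78.5 CPM in the anestrus pools. NDUFC2 was at 91.3 and 61.3 CPM there and at 103 and 45.9 CPM in the anestrus pools.

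Complex II, succinate dehydrogenase, links the tricarboxylic acid cycle to the chain, and each of its 4 subunits was measured. SDHA, the flavoprotein that oxidises succinate, was at 138 and 95.4 CPM in the follicular pools and at 123 and 81.8 CPM in the anestrus pools. Pool 1 exceeded pool 2 in both seasons, and the log2 fold change was 0.19 ± 0.24. SDHB, the iron-sulphur subunit, was at 80.3 and 74.3 CPM against 99.3 and 73.6 CPM, a log2 fold change of -0.16 ± 0.19. SDHC, a membrane anchor, was at 135 and 126 CPM against 136 and 144 CPM, so its groups did not overlap, by less than 1 CPM between follicular pool 1 and anestrus pool 1. SDHD, the other anchor, was at 212 and 238 CPM against 247 and 232 CPM, a log2 fold change of -0.09 ± 0.16. The adjusted p of the 4 genes was at least 0.895 (edgeR). Summed CPM of the complex was 549 ± 22.2 in the follicular phase and 569 ± 51.8 in anestrus.

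Fold changes of the 15 subunits of the ATP synthase had a median of -0.12 on the log2 scale, with 11 fitted lower and 4 higher in the follicular phase and 0 called. In the catalytic head, ATP5A1 and ATP5B, the alpha and beta subunits, varied little. ATP5B was at 624 and 585 CPM in the follicular pools and at 610 and 585 CPM in the anestrus pools, with a log2 fold change of 0.02 ± 0.15 and a 95% interval from -0.32 to 0.35. ATP5A1 was at 535 and 511 CPM against 598 and 544 CPM, lower in both follicular pools, with a log2 fold change of -0.13 ± 0.15. ATP5C1, the gamma subunit of the rotating shaft, was at 199 and 189 CPM against 235 and 182 CPM. The largest pool ratio of these 3 genes was 0.37 on the log2 scale, for ATP5C1 in anestrus.

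The small head subunits had the lowest and the highest fold changes of the enzyme. ATP5E, the epsilon subunit, was at 227 and 252 CPM in the follicular pools and at 371 and 200 CPM in the anestrus pools. Both follicular values lay between those of anestrus, and the log2 fold change was -0.25 ± 0.27 (adjusted p = 0.879, edgeR). ATP5D, the delta subunit, was at 62.8 and 38.0 CPM against 56.3 and 29.6 CPM, with pool 1 the higher in both seasons. Its log2 fold change was 0.24 ± 0.34 (adjusted p = 0.923, edgeR). Without anestrus pool 2 the log2 fold change of ATP5E was -0.59 and called, and without anestrus pool 1 that of ATP5D was 0.77 and called.

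Subunit c, which forms the rotating ring in the membrane, is known to be encoded by 3 genes with differing import sequences and the same mature protein. ATP5G1 was at 191 and 163 CPM in the follicular pools and at 158 and 143 CPM in the anestrus pools, higher in both follicular pools, with a log2 fold change of 0.23 ± 0.16 (adjusted p = 0.777, edgeR). ATP5G2 was at 222 and 214 CPM against 254 and 220 CPM (-0.12 ± 0.16), and ATP5G3 at 187 and 165 CPM against 205 and 151 CPM (-0.02 ± 0.18). ATP5G1 supplied 31.8% and 30.05% of the summed CPM of the 3 genes in the follicular pools, and in the anestrus pools 25.5% and 27.8%. That share was higher in both follicular pools, while the share of ATP5G2 was 37.1% and 39.5% against 41.2% and 42.8%. These shares were not tested, and shares of CPM are not corrected for transcript length.

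The 4 genes of the peripheral stalk, ATP5F1, ATP5H, ATP5J and ATP5O, which hold the head still against the turning shaft, had negative fold changes from -0.25 to -0.09. Each was lowest in follicular pool 1 and highest in anestrus pool 1. ATP5J, coupling factor F6, was at 166 and 197 CPM in the follicular pools and at 252 and 179 CPM in the anestrus pools, with a log2 fold change of -0.25 ± 0.19. ATP5O, the oligomycin sensitivity conferring protein, was at 232 and 250 CPM against 311 and 255 CPM. The membrane subunits ATP5I, ATP5J2 and ATP5L, known for their part in joining ATP synthase dimers, had fold changes from -0.17 to 0.04 and were also highest in anestrus pool 1. ATP5I had the widest gap of these, at 278 CPM in anestrus pool 1 and 142 CPM in anestrus pool 2.

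NDUFA4 was long counted with complex I and is now placed with complex IV. It was at 220 and 273 CPM in the follicular pools and at 322 and 221 CPM in the anestrus pools, with a log2 fold change of -0.14 ± 0.20. NDUFA4L2, its paralogue known as a target of hypoxia-inducible factor, had few counts, with 75 and 34 counts in the follicular pools against 26 and 25. Its CPM were 2.95 and 1.98 against 1.82 and 1.39, higher in both follicular pools by a small margin, with a log2 fold change of 0.63 ± 0.47 (adjusted p = 0.793, edgeR). With 1 library left out, its log2 fold change ran from 0.32 (without follicular pool 1) to 0.88 (without follicular pool 2). ATP5S, known as coupling factor B, was at 50.3 and 44.2 CPM against 42.3 and 44.5 CPM. ATP5SL, a relative of ATP5S, was at 19.4 and 17.7 CPM against 15.4 and 15.7 CPM. For both, the anestrus pools were closer to each other than the follicular pools were, unlike most of the subunits.

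How large a change these libraries could have hidden differed by gene. The 95% interval of the log2 fold change lay within a 2-fold change in both directions for 52 of the 59 genes, and within 1.5-fold for 24. The intervals of ATP5D, NDUFA4L2, NDUFB1, NDUFB7, NDUFS6, NDUFS7 and NDUFV1 reached past 2-fold. The widest was that of NDUFB7, from -1.61 to 2.21. The median SE of the 59 genes was 0.19, beside 0.26 over all genes tested. Both SE and intervals rest in part on the spread of the other genes, not only on the 2 pools of a group. A p that missed the threshold does not show that a gene was equal in the 2 seasons.

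**Figure D2:**
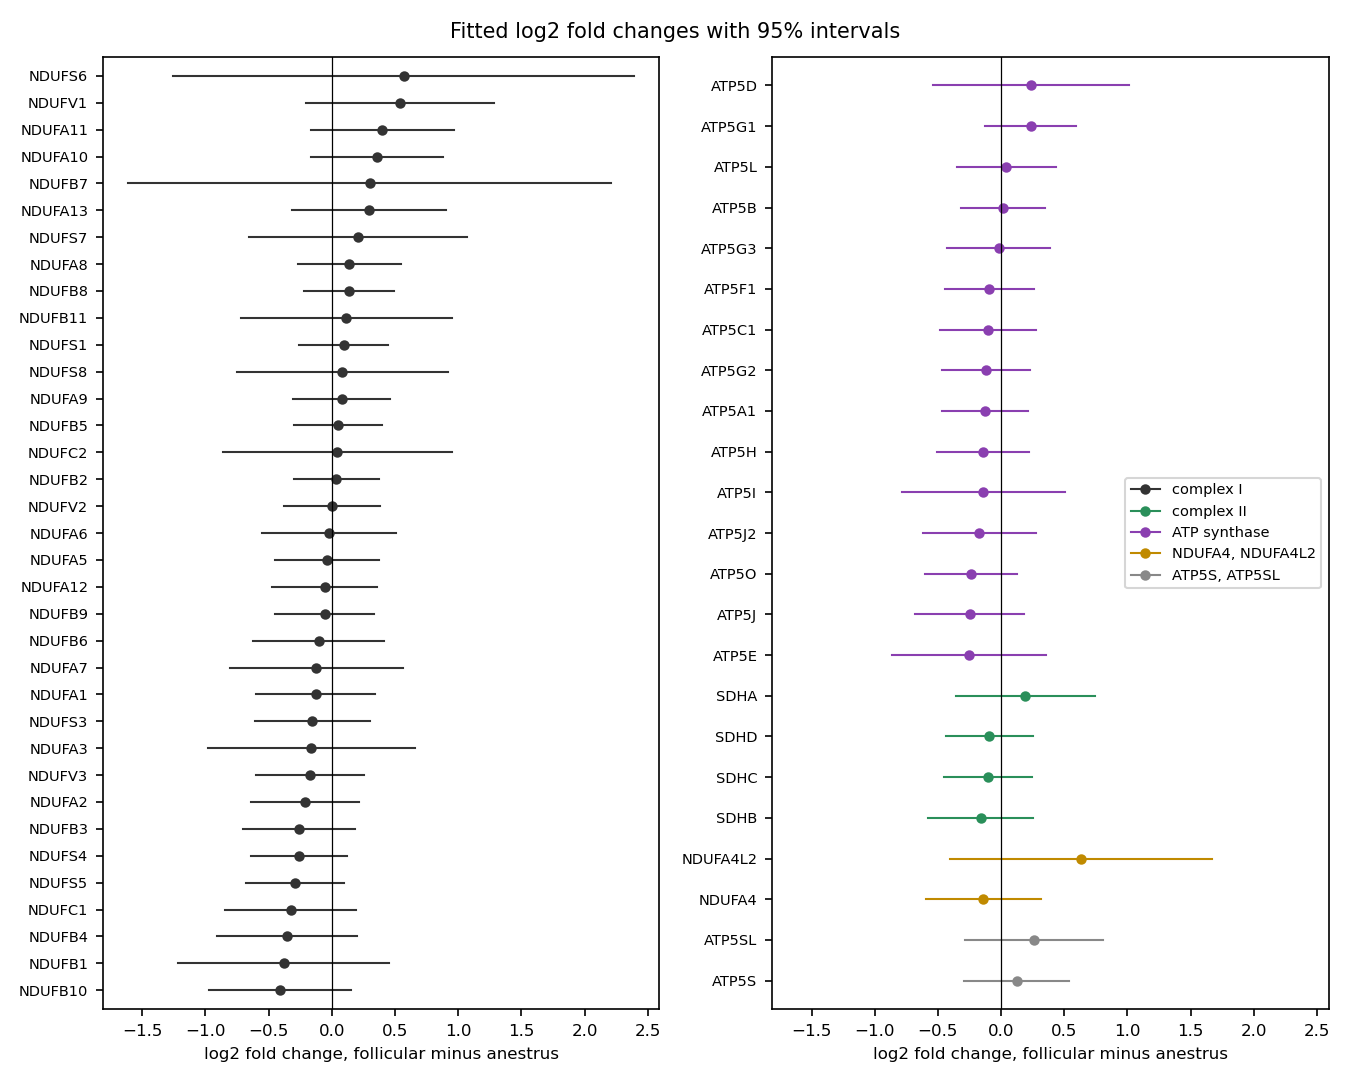
Log2 fold change (follicular minus anestrus, edgeR) of the genes named at the rows, each with its 95% interval as a line, complex I on the left and the other genes on the right, coloured by complex. The intervals of the genes shown all cross 0, and those of NDUFB7 and NDUFS6 are the widest.

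The larger differences lay between the pools of a season, above all in anestrus. In anestrus, 55 of the 59 genes (93.2%) were higher in pool 1 than in pool 2, with a median log2 ratio of 0.44. Over all genes tested 53.8% were higher in that pool, with a median of 0.04. The 4 exceptions were NDUFS1, SDHC, ATP5S and ATP5SL. In the follicular phase 34 of the 59 (57.6%) were higher in pool 1, with a median log2 ratio of 0.05. Anestrus pool 1 was the highest of the 4 libraries for 36 genes (61.0%, beside 29.6% of all genes tested), and anestrus pool 2 was the lowest for 36 (61.0%, beside 29.8%). No test was made of the difference between single pools, each of which is 1 library.

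Complexes I and II and the ATP synthase each had this order of the anestrus pools. Summed CPM in anestrus pool 1 was 1.34 times that in anestrus pool 2 for complex I, at 4155 and 3093 CPM. It was 1.26 times for the ATP synthase, at 4452 and 3537 CPM, and 1.14 times for complex II, at 605 and 532 CPM. The follicular pools were within a ratio of 1.06 for each of the 3, at 3545 and 3486 CPM for complex I and at 3712 and 3757 CPM for the ATP synthase. The summed CPM of the ATP synthase over that of complex I was 1.05 and 1.08 in the follicular pools. In those of anestrus it was 1.07 and 1.14, highest in anestrus pool 2. This ratio is not corrected for transcript length.

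The labels link the pools of the 2 seasons only by a number. The titles number the anestrus pools the other way from the library names, so the orders here hold by library name and turn over by title. By library name, pool 1 exceeded pool 2 by over 0.5 on the log2 scale in both seasons for 10 of the 59 genes (16.9%, beside 6.14% of all genes tested), namely NDUFA11, NDUFA13, NDUFB7, NDUFB11, NDUFC2, NDUFS6, NDUFS7, NDUFV1, SDHA and ATP5D. This boundary was chosen after the values were seen. NDUFB7 had log2 ratios of 1.18 in the follicular phase and 1.80 in anestrus, and NDUFS6 of 0.95 and 2.05. Another 24 genes (40.7%, beside 20.6%) were higher in pool 2 in the follicular phase and in pool 1 in anestrus. Among them were the peripheral stalk and membrane subunits of the ATP synthase, with NDUFB1 at -0.44 and 1.12 and NDUFB4 at -0.50 and 0.64. Across the 59 genes the log2 ratios of the seasons had a Pearson r of 0.45 and a Spearman rho of 0.18, described over genes that share the 4 libraries and are not independent. By title the same values are -0.45 and -0.18. Over all genes tested r was 0.26 and rho 0.31 by library name, and -0.26 and -0.31 by title. By library name, the 59 genes thus had the higher r but the lower rho.

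**Figure D3:**
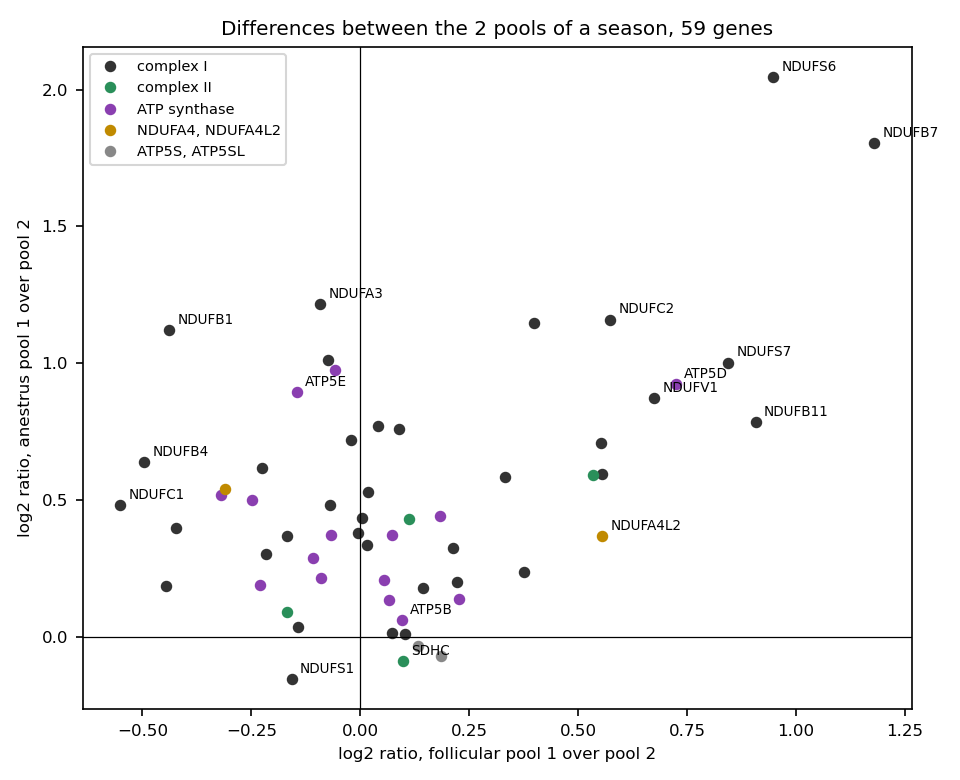
Log2 ratio of pool 1 over pool 2 in the follicular phase (x axis) and in anestrus (y axis) for each of the 59 genes, coloured by complex, with some genes named. In anestrus, 55 points lie above 0, and NDUFS6 and NDUFB7 lie farthest out, with pool 1, by library name, higher in both seasons.

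Whether genes of this group were called differed with the pool left out, and the cause was not tested. Without anestrus pool 1, 7 of the 59 genes (11.9%) were called, each higher in the follicular phase, where 4.72% of all genes tested in that fit were called and 3.15% were called in that direction. They were NDUFA11, NDUFA13, NDUFB7, NDUFC2, NDUFS6, NDUFV1 and ATP5D, with log2 fold changes from 0.69 for NDUFA13 to 1.94 for NDUFS6. Without anestrus pool 2, 3 of the 59 (5.08%) were called, each higher in anestrus, where 3.39% of all genes tested were called and 1.64% in that direction, namely NDUFB1, NDUFB4 and ATP5E. With follicular pool 1 left out, or follicular pool 2, there were 0, beside 0.0233% and 0.553% of all genes. The median log2 fold change of the 59 was 0.16 when anestrus pool 1 was left out and -0.18 when anestrus pool 2 was, opposite in sign. With 1 library in a group, the fit assumes that it varies as the other group does.

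Other genes of mitochondrial energy metabolism were read from lists that are given in full by their counts. Assembly factors, which build the complexes without staying in them, had fold changes with a median of -0.13 (log2) over 28 tested of 51 listed, with 0 called in edgeR, 0 at an unadjusted p under 0.05, and 0 in DESeq2 or limma-voom. Their median ran from -0.23 without anestrus pool 2 to 0.068 without anestrus pool 1. It is largely a median of complex I factors, with 16 of 17 listed tested, against 2 of 6 for complex III and 3 of 21 for complex IV. NDUFAB1, the acyl carrier protein that is also a complex I subunit and falls outside the symbol pattern, was at 54.4 and 62.5 CPM in the follicular pools and at 102 and 52.2 CPM in the anestrus pools. ATPIF1, the inhibitor that stops the ATP synthase from running backwards, was at 113 and 66.3 CPM against 97.4 and 45.4 CPM. USMG5, a small ATP synthase subunit, was at 78.1 and 101 CPM against 159 and 70.9 CPM. ATPIF1 and USMG5 were added after their symbols were seen in the table. All 3 were higher in anestrus pool 1 than in anestrus pool 2, like 55 of the 59.

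Regulators of mitochondrial gene expression, transcription factors and coactivators of nuclear and mitochondrial DNA, made up another list. The median fold change (log2) of the 13 genes was 0.01, with 0 called in edgeR, 0 at an unadjusted p under 0.05, and 0 in DESeq2 or limma-voom. PPARGC1A, the coactivator of mitochondrial biogenesis, had 39.2 ± 5.47 CPM (follicular) and 36.6 ± 3.01 CPM (anestrus), and NRF1, a transcription factor of many respiratory chain genes, at 108 ± 0.0581 CPM and 95.4 ± 4.59 CPM. TFAM, which packages mitochondrial DNA, was at 63.8 ± 10.1 and 63.3 ± 11.1 CPM. Leaving out anestrus pool 1 brought the median of the 13 to -0.16, and leaving out anestrus pool 2 to 0.16. Only 3 of the 13 were higher in anestrus pool 1 than in anestrus pool 2.

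The pathways that feed the chain were read in the same way. For the 13 genes of the tricarboxylic acid cycle the median was 0.01, with 0 called in edgeR, 0 at an unadjusted p under 0.05, and 0 in DESeq2 or limma-voom. The 15 glycolytic genes measured had positive fold changes without exception, with a median of 0.28, although 0 were called in edgeR, 1 lay at an unadjusted p under 0.05, DESeq2 called 1 and limma-voom 0. The glycolytic median was 0.13 without follicular pool 1, 0.25 without anestrus pool 2, 0.36 without anestrus pool 1 and 0.40 without follicular pool 2. ALDOC, the aldolase of brain astrocytes, had a log2 fold change of 0.73 ± 0.18 (adjusted p = 0.223, edgeR), from 1010 ± 140 CPM (follicular) and 610 ± 98.3 CPM (anestrus). GAPDH was at 1549 ± 154 and 1288 ± 20.4 CPM, and PKM, the last enzyme of the pathway, at 999 ± 159 and 822 ± 74.0 CPM. On the mean log2 CPM centred over the 4 libraries, glycolytic genes stood at 0.33 in follicular pool 1 and -0.05 in follicular pool 2, and at -0.07 and -0.21 in the anestrus pools. The difference between the glycolytic and respiratory chain genes was not tested.

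Genes for ribosomal proteins, mitochondrial and cytosolic, had the same order of the anestrus pools. Mitochondrial ribosomal protein genes had a centred mean of 0.31 in anestrus pool 1 and -0.24 in anestrus pool 2, beside 0.25 and -0.26 for the 59 genes. Cytosolic ribosomal protein genes stood at 0.40 and -0.11, and their summed CPM was 48957 and 37296. Of the 74 mitochondrial ones 68 were higher in anestrus pool 1, as were 74 of the 79 cytosolic ones tested. Between the seasons, the medians were -0.16 and -0.36, and 0 of either list were called in edgeR, DESeq2 or limma-voom, with 4 and 30 genes at an unadjusted p under 0.05. The mitochondrial median turned to 0.065 when anestrus pool 1 was left out, and it was -0.26 without anestrus pool 2 and -0.050 without follicular pool 2. The cytosolic median stayed negative, from -0.49 without anestrus pool 2 to -0.15 without anestrus pool 1.

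**Figure D4:**
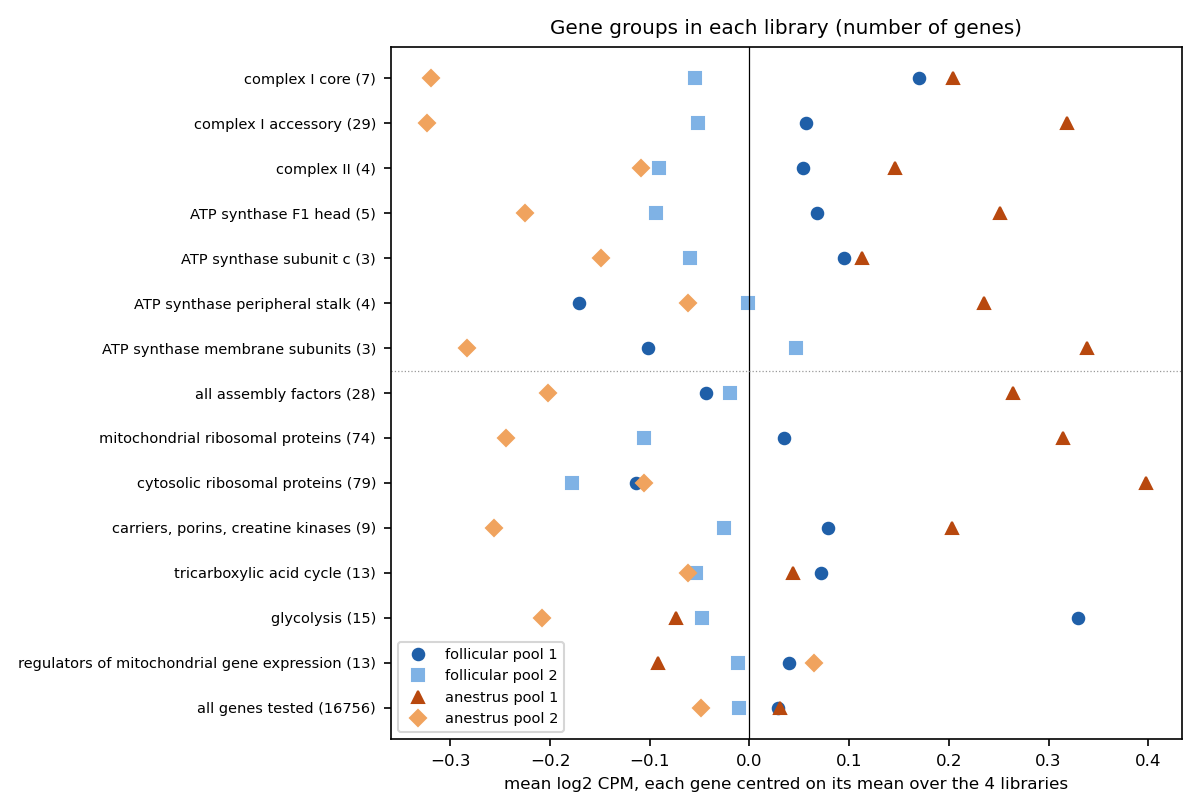
Mean log2 CPM of each gene group in each library, with every gene centred on its own mean over the 4 libraries; groups of the 59 genes lie above the dotted line and other lists below it. Anestrus pool 1 lies highest and anestrus pool 2 lowest for both groups of complex I, at 0.32 and -0.32 for its accessory subunits, and glycolysis stands highest in follicular pool 1.

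Of the markers of cell types in the block, GFAP, CGA and TSHB were called between the seasons in edgeR, and the summed CPM of the lists is given by pool. Neuron markers, with 9 of 10 genes measured in this labelled brain tissue, summed to 3972 and 4410 CPM in the follicular pools and to 3772 and 3114 CPM in the anestrus pools. Their median log2 fold change was 0.35, with 0 called in edgeR, DESeq2 or limma-voom and 3 at an unadjusted p under 0.05, and ran from 0.20 without anestrus pool 2 to 0.46 without follicular pool 1. Astrocyte markers (7 of 7 measured, with GFAP called) summed to 9480 and 10575 CPM against 5822 and 6050 CPM. All 7 were fitted higher in the follicular phase, with 1 called in DESeq2, 1 in limma-voom and 5 at an unadjusted p under 0.05 in edgeR. Oligodendrocyte and myelin markers (9 of 9, with 0 called in edgeR, 2 in DESeq2, 0 in limma-voom and 8 at an unadjusted p under 0.05) summed to 3463 and 4658 CPM against 2930 and 1888 CPM. Of the pituitary and pars tuberalis markers, 8 of 10 were tested, with CGA and TSHB called. Among the 8, 7 were fitted lower in the follicular phase and 1 higher, with log2 fold changes from -7.45 to 1.48. The 9 rows matched summed to 5668 and 4521 CPM against 14954 and 11561 CPM. Neuron, oligodendrocyte and pituitary markers were thus higher in anestrus pool 1 than in anestrus pool 2, as the 59 genes were, and astrocyte markers were lower. Of the 4 erythrocyte markers listed, 2 were matched and 0 tested, and HBA and HBB were not measured. The matched genes, SLC4A1 and ALAS2, had at most 3 counts in a library and were at 0 in 5 of 8 values. Markers of choroid plexus and ependyma summed to 343 and 104 CPM against 134 and 93.8 CPM, those of microglia to 399 and 421 CPM against 334 and 332 CPM, those of endothelium to 127 and 124 CPM against 108 and 131 CPM, and those of striated muscle to 7.60 and 7.50 CPM against 7.15 and 5.61 CPM. The part of these cell types in the values of the respiratory chain genes was not tested.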

How the data were processed

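The authors deposited raw read counts per gene for 4 pooled libraries. The labels' protocols name TriReagent for RNA and a stranded Truseq mRNA kit for libraries. The submitters' processing notes list featureCounts 2.0.0, TopHat2 2.1.1 with Bowtie2 2.3.5.1, SAMtools 1.9, FastQC and bcl2fastq 2.20. The build, annotation and strand setting: not given in the sources used here, so no coordinates are printed. The 59 members were found by identifier and symbol in the RefSeq gene table of ARS1.2, and no sequences are shown. The values of 1 member enter the counts and are not reported here by name or in the plots by gene.

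Genes were kept with filterByExpr (minimum count 10, minimum total 15), scaled by TMM and fitted without covariates (2 residual degrees of freedom) by the robust quasi-likelihood method of edgeR 4.0.16 (R 4.3.3). Adjustment of p-values was over the 16756 genes tested. Standard errors are the fold change over the root of the F statistic. Intervals use the t distribution with the fit's degrees of freedom, which include those drawn from the other genes. Log2 CPM for pool ratios and centred means used a prior count of 2. The steps were checked on simulated counts. With gene-wise dispersions, simulated first, the share of false calls exceeded the adjusted p threshold. With trended dispersions, simulated after that was seen, it did not. Alternatives used limma 3.58.1 and DESeq2 1.42.0.

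Named genes were, per complex, the 2 with the highest mean CPM and the 2 highest and 2 lowest fold changes, the SDH subunits, the NDUFA4 pair and the subunit c genes, and called genes of the lists. Any other gene was named with its values in view. Members and lists were chosen with earlier results of these data known. The anestrus pools carry opposite numbers in titles and library names, and library names were used.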

Additional observations from a re-analysis of the deposited data

How the results depend on the processing

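Among the 9 alternatives that kept the 4 libraries, 0 of the 59 genes were called in each, and their median log2 fold change ran from -0.06 to -0.03. The number of genes called in the whole table was 300 with no count filter and 143 with DESeq2, beside 34. With a replicate block by library name it was 90, and with a replicate block by title 130. Pool 1 and pool 2 deviations correlated at 0.26 between the seasons over 16756 genes by library name and at -0.26 by title. The goats were mixed at random into pools, and the labels link the pools of the seasons only by a number. Whether same-numbered pools shared a preparation step was not tested. The log2 fold change of ATP5G3 was 0.000932 with library totals only and 0.00116 with the mean CPM filter, against -0.02.

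Leaving out 1 library at a time, the number of genes called ran from 4 to 810, and that of the 59 from 0 to 7. The median log2 fold change ran from -0.25 to 0.20 for complex I, from -0.11 to 0.011 for complex II and from -0.18 to 0.092 for the ATP synthase, each lowest without anestrus pool 2 except complex II (follicular pool 1) and each highest without anestrus pool 1, and the log2 ratio of summed CPM from -0.24 to 0.12. Log2 fold changes changed sign for 12 of the 20 genes named by rule. They ran from -0.014 to 0.064 for ATP5B, -0.15 to 0.77 for ATP5D, -0.59 to 0.26 for ATP5E, -0.18 to 0.22 for ATP5G3, -0.43 to 0.021 for ATP5J, -0.34 to 0.15 for NDUFA4, -0.79 to 0.28 for NDUFB1, -0.70 to 0.025 for NDUFB10, -0.086 to 1.94 for NDUFS6, -0.080 to 0.51 for SDHA, -0.32 to 0.070 for SDHB and -0.18 to 0.0076 for SDHD. Of 260 values of the 20 genes, 237 kept their direction and stayed uncalled, 18 changed sign and 5 became called. The cause was not tested. With only the subunits of complexes I, II and V, a choice made after the data were seen, the median was -0.09. The 95% interval lay within a 2-fold change in both directions for 52 of the 59 genes.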
